A study of Mus musculus with 5 samples.

Results

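The genes described here are 10 mouse genes of antigen presentation, listed by symbol: the major histocompatibility complex (MHC) class I chains H2-K1, H2-D1 and B2m, the peptide loading genes Tap1, Tap2 and Tapbp, the immunoproteasome genes Psmb8 and Psmb9, the class I transactivator Nlrc5, and the class II chaperone Cd74. All 10 were found among the 27729 genes measured. The samples are mouse embryonic fibroblasts (MEFs) of the outbred ICR strain, cells grown out of embryos after removal of the head and internal organs. They were sequenced in their own serum medium (day 0) and after 2, 5, 10 and 14 days of a change to a defined 5C medium that contains bFGF, LIF, vitamin C, N2 supplement and 2-mercaptoethanol and that turns part of the cells into neuron-like cells. The labels name this medium 6C, and the text beside the last library gives day 15 where its own label gives day 14. Every library is total RNA of a mixed culture, so fewer cells of a type and less RNA per cell cannot be told apart.

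There was 1 library per time point. No difference between days could therefore be tested against the spread between cultures, and p-values are left out. The ranges in parentheses below are exact 95% Clopper-Pearson limits, computed from the counts of the compared libraries, and cover counting error only. The library totals were between 2253748 expected counts (day 2) and 3890334 (day 0). The day 2 library stood apart, since a single gene, Gm42418, held 4.79% of its counts against 0.0484% to 0.109% in the other libraries. Of 12 fibroblast markers all were detected in every library, among them Col1a2, a collagen chain. Of the neuronal markers, Tubb3, the antigen of the TuJ antibody, had between 22 and 179.9 expected counts, while Rbfox3 was at 0 in every library and Dcx from day 2 on.

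MHC class I molecules display fragments of a cell's own proteins on its surface, where cytotoxic T cells can read them. Each consists of a heavy chain, such as those of H2-K1 and H2-D1, and the invariant light chain beta-2-microglobulin (B2m). The peptides come from the proteasome, in which the immune subunits Psmb8 and Psmb9 can take the places of Psmb5 and Psmb6, and are pumped into the endoplasmic reticulum by the Tap1 and Tap2 transporter, to which tapasin (Tapbp) tethers the empty class I molecule. Nlrc5 acts on the promoters of these genes through the SXY module, a row of boxes that includes a cyclic AMP response element (CRE), and interferon-gamma is the classical inducer of the whole pathway. Class II molecules need the invariant chain Cd74 for their assembly and the transactivator Ciita for the transcription of their genes. They are found mainly on professional antigen-presenting cells such as macrophages, dendritic cells and B cells.

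Of the members with coordinates given here (GRCm38, GENCODE M21), 7 lie in the MHC on chromosome 17. In order along the chromosome these are Tapbp at chr17:33915899-33929292 (plus strand), H2-K1 at chr17:33996017-34000347 (minus), Psmb9 at chr17:34181987-34187764 (minus), Tap1 at chr17:34187553-34197225 (plus), Psmb8 at chr17:34197721-34201454 (plus), Tap2 at chr17:34203527-34216321 (plus) and H2-D1 at chr17:35262730-35267499 (plus). B2m lies at chr2:122147686-122153083 (plus) and Nlrc5 at chr8:94434356-94527272 (plus). All are protein-coding genes. RefSeq promoter windows of 300 bases (build GRCm38.p6) were found for 7 of the 10 members, namely H2-K1, H2-D1, B2m, Tap1, Tapbp, Psmb8 and Psmb9. The 250 bases before the start are shown for the 3 class I chains and for Tap1, because the letters that the class I chains share and do not share are visible in them. Capitals mark the CRE core (TGACG), the kB box (GGG, any 2 bases, TTCC) and the interferon-stimulated response element (ISRE: GAAA, any 2 bases, GAAA).
H2-K1, chr17:34000348-34000597, minus strand: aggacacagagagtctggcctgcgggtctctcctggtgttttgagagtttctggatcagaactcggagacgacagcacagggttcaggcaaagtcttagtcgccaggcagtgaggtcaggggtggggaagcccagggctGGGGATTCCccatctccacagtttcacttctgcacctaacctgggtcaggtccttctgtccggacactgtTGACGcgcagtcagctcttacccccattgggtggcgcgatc
H2-D1, chr17:35262844-35263093, plus strand: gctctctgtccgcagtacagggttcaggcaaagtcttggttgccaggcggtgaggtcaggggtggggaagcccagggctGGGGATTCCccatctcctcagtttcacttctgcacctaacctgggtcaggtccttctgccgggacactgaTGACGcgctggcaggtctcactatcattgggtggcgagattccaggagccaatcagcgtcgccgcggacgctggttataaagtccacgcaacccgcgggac
B2m, chr2:122147437-122147686, plus strand: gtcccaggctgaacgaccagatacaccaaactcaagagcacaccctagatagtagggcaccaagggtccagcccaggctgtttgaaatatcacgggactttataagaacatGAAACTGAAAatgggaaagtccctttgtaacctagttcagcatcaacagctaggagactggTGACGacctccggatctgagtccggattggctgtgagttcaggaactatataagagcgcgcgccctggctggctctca
Tap1, chr17:34187306-34187555, plus strand: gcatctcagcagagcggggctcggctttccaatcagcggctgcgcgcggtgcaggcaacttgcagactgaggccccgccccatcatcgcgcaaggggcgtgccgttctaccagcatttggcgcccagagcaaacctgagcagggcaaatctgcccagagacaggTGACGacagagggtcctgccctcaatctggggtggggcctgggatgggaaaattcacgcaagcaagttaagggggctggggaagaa

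The motifs named here were searched on both strands of each window, counted from the RefSeq start with −1 as the base before it. The CRE core was found in 5 of the 7 windows (H2-K1, H2-D1, B2m, Tap1 and Psmb9), and in 20.8% of 32851 promoters. The kB box was found in H2-K1 at −111 to −103 and in H2-D1 at −171 to −163, and in 5.82% of all promoters. H2-K1 and H2-D1 carry the same arrangement shifted along the window. In both the CRE core starts 70 bases after the kB box, and a CCAAT box (CCAAT, in 37.4% of promoters and 6 of the 7 windows) starts 25 bases after the CRE core. The ISRE pattern was found in B2m at −139 to −130 and in no other member window, and in 3.44% of all promoters. The GAS pattern (TTC, any 3 bases, GAA), named for interferon-gamma-activated sequences, was found in Psmb8 at −97 to −89 and in 8.30% of all promoters. None of the letters searched overlapped in these windows. Tap1 and Psmb9 are transcribed away from each other from starts 226 bases apart, their windows share 275 of 300 bases, and the CRE core of both is the same site. The H2-D1 window lies inside the GENCODE gene, whose annotated start is farther upstream than that of RefSeq. A match of letters is a description and was not tested as a binding site. Only exact matches were counted, so a window without a match may still hold a looser form of the element.

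From day 5 on the members of the class I pathway were at higher levels in 5C medium than in MEFs, and the class II chaperone was not detectable at a level that could be compared. A gene was kept if at least 1 library gave it 10 or more expected counts, which left 9 of the 10 members and 13346 genes in all. Cd74 was the member left out. On day 2, 5 of the 9 members were more than 2-fold higher than on day 0, where 15.2% of all kept genes were (13.1% were 2-fold lower). On day 5 all 9 were higher (20.2% of all genes, with 13.6% lower). On day 10, 8 were higher (28.7%, with 22.3% lower), and on day 14 again 9 (24.5%, with 19.9% lower). No kept member was 2-fold lower on any day. Psmb9 and Nlrc5 had fewer than 10 counts on day 0 and were kept only because of later libraries, so their place among the higher genes follows from the filter. Without both, 3, 7, 6 and 7 of 7 members were 2-fold higher on days 2, 5, 10 and 14, an alternative chosen after the data had been seen. The share of all genes under that stricter filter was not computed, and the shares above include genes kept only through later libraries. With each change taken relative to genes of like length, Tap2 on day 5 (0.98) and Tap1 on day 14 (0.91) no longer passed 2-fold. This left 8 members on each of these days, beside 18.6% and 22.3% of all kept genes.

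The median log2 change of the 9 kept members against day 0 was 1.53, 1.80, 1.97 and 2.65 in the libraries of days 2, 5, 10 and 14. Over the 7 members with 10 or more counts on day 0 it was 0.93, 1.73, 1.80 and 1.91. The median over all kept genes stayed between −0.03 and 0.14. These changes are log2 ratios of normalised counts (expected counts scaled between libraries with TMM factors) with a pseudocount of 1. Scaling moves them: with TPM values the median of all genes on day 10 was itself 1.09, and 52.9% of genes were 2-fold higher and 6.77% lower, and with library totals alone 39.3% were higher and 14.5% lower. On days 2, 5 and 14 the shares with TPM were 7.93%, 32.1% and 41.6% higher and 14.1%, 3.98% and 6.97% lower, and with library totals on days 5 and 14 28.6% and 32.4% higher and 7.55% and 13.6% lower. The members' own median on day 10 with TPM was 3.20. From step to step, 2 of 9 members (H2-D1 and B2m) were more than 2-fold higher on day 5 than on day 2, beside 19.0% of all genes. No member passed 2-fold in either direction from day 5 to day 10 (12.8% of genes higher, 9.50% lower) or from day 10 to day 14 (4.73% higher, 8.33% lower).

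**Figure D1:**
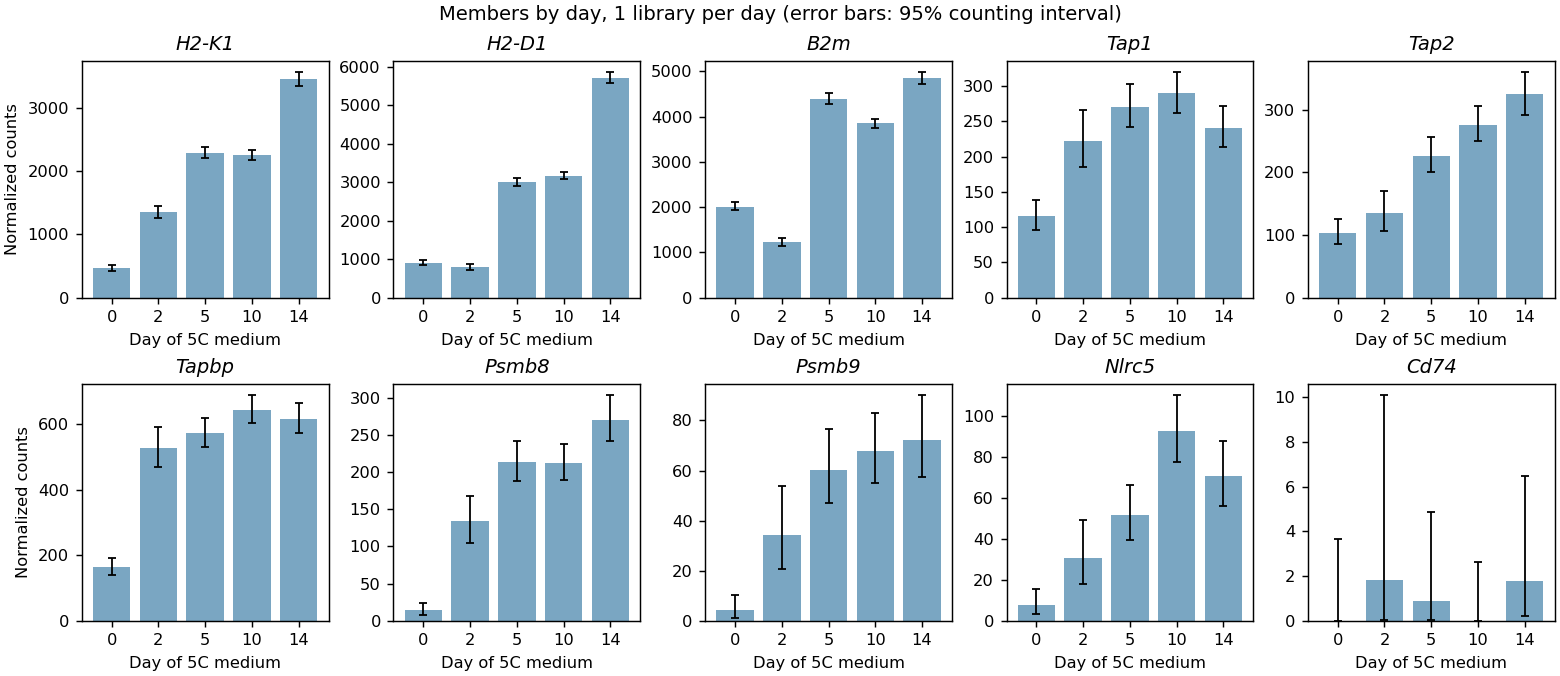
Normalised counts (y axes, linear, from 0) of each of the 10 members by day of 5C medium (x axes), 1 library per day, with exact 95% counting intervals as error bars. B2m and H2-D1 are lowest on day 2, Nlrc5 is highest on day 10 with 92.8, and H2-K1 and H2-D1 are highest on day 14 with 3450 and 5711.

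H2-K1 had 470.3, 747, 2613, 3148 and 3860.2 expected counts from day 0 to day 14 (values are given in this order throughout). Of the 3 class I chains among the members it was the only one that was already higher on day 2, with a log2 change against day 0 of 1.53 (1.37 to 1.71), and it reached 2.89 (2.75 to 3.03) on day 14. H2-D1, the other classical heavy chain, had 916, 434, 3432, 4434 and 6389 expected counts. On day 2 it was slightly below day 0 (log2 change −0.21, −0.38 to −0.04), from where it was 3.83-fold (3.46 to 4.24) higher on day 5. On day 14 its change against day 0 was 2.65 (2.56 to 2.76). From day 10 to day 14 the change of H2-D1 was 0.85 (0.80 to 0.91) and that of H2-K1 0.62 (0.55 to 0.69).

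B2m, the light chain that every class I molecule shares, had 2034, 679, 5018, 5390.0 and 5422 expected counts. The value of day 2 was the lowest, 0.71 below day 0 on the log2 scale (change −0.71, −0.84 to −0.59). Its changes on days 5, 10 and 14 were 1.12 (1.05 to 1.20), 0.93 (0.86 to 1.01) and 1.27 (1.19 to 1.34). B2m on day 10 was thus the only kept member and day from day 5 on that did not pass 2-fold. Transcript length moves with this value. B2m is 860 bases long. With all kept genes divided into 10 bins by length, the median change on day 10 was −1.47 in its bin, the shortest, against 1.04 in the bin of the longest genes. Relative to that median B2m was 2.41 higher on day 10, and with TPM values its change was 2.08. The part of length in the result was not tested.

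**Figure D2:**
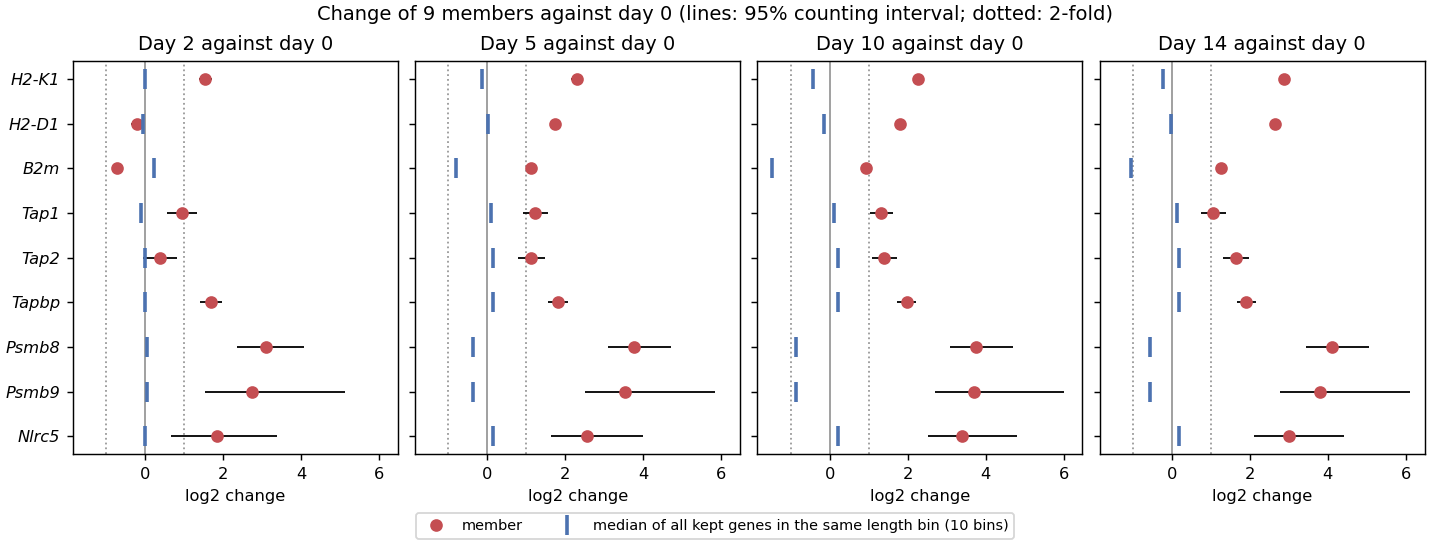
Log2 change of normalised counts against day 0 (x axes) for the 9 kept members (y axis), 1 panel per later day, with 95% counting intervals as lines, dotted lines at 2-fold, and blue ticks at the median of all kept genes in the same of 10 length bins. On days 5 and 14 every red point lies above 2-fold, on day 10 every point but that of B2m (0.93), and on day 2 H2-D1 and B2m lie below 0.

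The share of the heavy chains H2-K1 and H2-D1 differed between the libraries, most in that of day 2. Of their summed counts in MEFs H2-K1 held 33.9% (31.4 to 36.5%). After 2 days this was 63.3% (60.4 to 66.0%), and at the later time points it was 43.2% (42.0 to 44.5%), 41.5% (40.4 to 42.6%) and 37.7% (36.7 to 38.6%). The day 2 library was the only one in which H2-K1 had the larger share. This share lies within a library and does not depend on scaling between libraries. The genes are close relatives, and RSEM divides reads that fit both. The cells are of an outbred strain, and how reads of class I alleles that differ from the reference genome were counted was not tested. Of the 50-base windows of the longest H2-K1 transcript 8.11% occur in another gene's transcripts, most of them in those of H2-D1, and of the H2-D1 windows 14.3% do, most of them in H2-Q1. Their sum, which does not depend on how reads were divided between the pair, was higher than on day 0 by log2 changes of 0.64 (0.52 to 0.75), 1.95 (1.86 to 2.03), 1.98 (1.90 to 2.06) and 2.74 (2.66 to 2.82) on days 2, 5, 10 and 14.

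The other class I heavy chains were near their day 0 level on day 2, with a median log2 change of 0.19, and higher from day 5 on, with medians of 2.13, 2.61 and 2.99. Of 17 listed, 15 were in the files and 13 were kept. On day 2, 2 were 2-fold higher and 3 lower, beside 15.2% and 13.1% of all kept genes. On days 5, 10 and 14 11, 12 and 12 were higher and 0 lower, beside 20.2%, 28.7% and 24.5% of all kept genes higher. Of the 13 heavy chains, 5 had under 10 counts on day 0, as H2-Q6 with 9.47, so that this count also depends on the filter. Of the other 8, 7 were 2-fold higher on days 5, 10 and 14. H2-Q4, the most abundant of them on day 14, had 150.0, 93.9, 746, 1397 and 1528 expected counts, and its log2 change on day 14 was 3.19 (2.96 to 3.45). H2-T23, which encodes the non-classical molecule Qa-1, had 36.4, 30.7, 154, 314 and 338 expected counts, with a change of 3.04 (2.59 to 3.62). H2-T22 stayed within 2-fold on every day, with 0.86 (0.60 to 1.13) on day 14. With library totals, TPM values or length bins, however, all 13 passed 2-fold on days 10 and 14. Fewer did under other settings, with 10 on both days after quantile normalization, and 11 and 10 with a pseudocount of 5. All 17 heavy chains together, the pair included, were 2.72 (2.65 to 2.79) higher on day 14, and H2-K1 and H2-D1 supplied between 70.9% and 80.1% of their counts on every day.

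The 3 peptide loading genes were all 2-fold higher from day 5 on, and differed in their values on day 2. Tapbp had 165, 291, 655, 902 and 690.2 expected counts. Its log2 change was 1.68 (1.41 to 1.97) on day 2, and it was 1.80, 1.97 and 1.91 (1.67 to 2.17) on the later days. How much of it was present on day 2 depends on the scaling, since with TPM values the changes were 1.31, 2.52, 3.24 and 2.87. Tap2 had 105, 75, 259, 387 and 363 expected counts, overlapped its day 0 level on day 2 (0.39, −0.06 to 0.83), and was 1.64 (1.33 to 1.97) higher on day 14. Tap1 had 117, 123, 310, 406 and 269.9 expected counts. Its changes were 0.93 (0.57 to 1.32), 1.22 (0.92 to 1.55), 1.31 (1.02 to 1.63) and 1.05 (0.74 to 1.39), so that the lower limits on days 5 and 14 did not reach 2-fold. In the last step the chains of the transporter went apart in normalised counts, with Tap1 at −0.26 (−0.49 to −0.04) and Tap2 at 0.23 (0.02 to 0.44). This depends on the scaling. In TPM both were lower on day 14 than on day 10, Tap1 with 61.6 against 88.7 and Tap2 with 86.5 against 89.2. Tapbp overlaps Zbtb22 on the same strand over 3422 bases, and Zbtb22 had 60 to 201 expected counts, so that part of the reads may belong to either.

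The chaperones and other endoplasmic reticulum proteins that serve class I beside many other proteins were mostly within 2-fold of day 0. Of 7 further loading genes, 0 were higher and 0 lower on day 2, 1 higher and 1 lower on days 5 and 14, and 1 higher and 2 lower on day 10, and their median changes were −0.20, 0.06, −0.77 and −0.38. Of all kept genes 15.2%, 20.2%, 28.7% and 24.5% were higher on days 2, 5, 10 and 14, and 13.1%, 13.6%, 22.3% and 19.9% lower. Erap1, the peptidase that trims peptides for class I, was the loading gene that was higher, with 2.00 on day 10 and 1.14 (0.60 to 1.74) on day 14. Calreticulin (Calr) was at −1.52 on day 10 and −0.95 on day 14. With TPM values the medians of this list on days 10 and 14 were 0.41 and 0.57, so that their sign depends on the scaling.

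Psmb8 and Psmb9, the immunoproteasome subunits among the members, had the largest estimates of the 9 kept members on every day. The intervals of both overlap that of Nlrc5 on every day. The wide interval of Psmb9 also overlaps that of H2-K1 on days 2 and 14 and that of Tapbp on day 2. With quantile normalization H2-K1 (3.42) and H2-D1 (3.38) were above Psmb9 (3.12) on day 14. Psmb8 had 15, 73.9, 244, 298 and 303 expected counts, a log2 change of 3.09 (2.36 to 4.08) on day 2 and of 4.10 (3.44 to 5.04) on day 14. Psmb9 had 4.31, 19, 68.8, 95.1 and 80.7 expected counts, a change of 2.75 (1.53 to 5.13) on day 2 and of 3.80 (2.78 to 6.10) on day 14. The width of both intervals comes from the low counts of day 0. Tap1 and Psmb9 overlap by 212 bases on opposite strands, and the library kit does not mark strand, so that reads in those bases cannot be told apart.

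The constitutive subunits went the other way. All 3 (Psmb5, Psmb6 and Psmb7) were 2-fold lower on days 10 and 14, beside 22.3% and 19.9% of all kept genes. Their median changes were −2.40 and −1.85, while with TPM values 3 were lower on day 10 and 0 on day 14. Relative to genes of like length only 1 was 2-fold lower on either day, with medians of −0.92 and −0.80. Because each immune subunit takes the place of a constitutive one, the ratio of their TPM values was taken within each library, where scaling does not enter. Psmb8 over Psmb5 was 0.00696, 0.0649, 0.348, 0.793 and 0.622. Against day 0 this ratio had changed by 3.22 (2.40 to 4.15) on the log2 scale on day 2. By day 10 the change was 6.83 (6.04 to 7.69). Gene length enters this ratio, and the deposited length of Psmb8 was 1611 bases on day 0 and 1085 on day 10. From expected counts without length the change on day 10 was 6.24. Psmb9 over Psmb6 was 0.00229, 0.015, 0.0876, 0.173 and 0.115, with a log2 change of 6.24 (4.91 to 8.24) on day 10. In TPM the messenger RNA of Psmb8 thus came near that of Psmb5 on day 10. That of Psmb9 stayed well below that of Psmb6 throughout.

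The remaining immune subunit, Psmb10, behaved otherwise. It had a TPM of 55.9 on day 0, well above Psmb8 with 3.26 and Psmb9 with 1.23. Its normalised count changed by 0.90 on day 2 and by −0.46 (−0.77 to −0.16) on day 14 on the log2 scale. In TPM it was above day 0 on every later day, with 87.6, 78.2, 99.1 and 74.0. The sign of its change on day 14 thus depends on the scaling. The ratio of Psmb10 to Psmb7 was 0.126, 0.302, 0.314, 0.531 and 0.317, a log2 change of 1.33 (0.98 to 1.67) on day 14. Of the 6 kept genes in the list of Psmb10, the proteasome activators and the assembly factor Pomp, 0 were 2-fold higher on any day, and Pomp was lower on days 10 and 14. Of all kept genes 15.2%, 20.2%, 28.7% and 24.5% were higher on days 2, 5, 10 and 14. With TPM values 2 of the 6 were higher on both day 10 and day 14. The list's medians on these days were then 0.58 and 0.40, in place of −0.54 and −0.43.

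**Figure D3:**
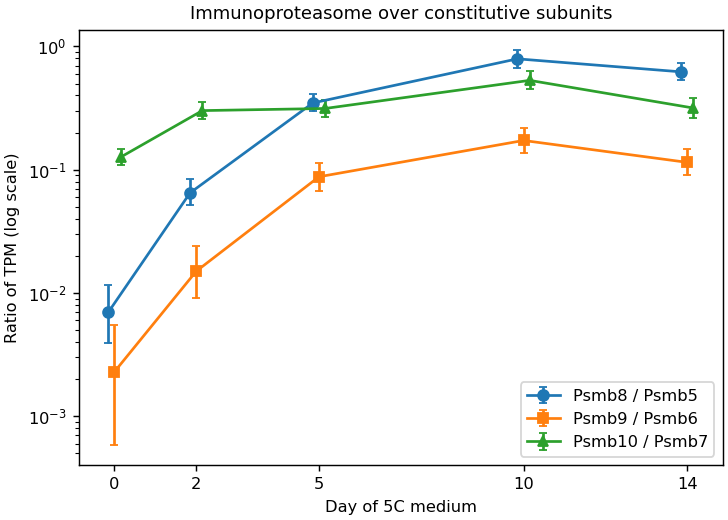
Ratio of TPM values of each immunoproteasome subunit to the constitutive subunit whose place it takes (y axis, log scale) by day of 5C medium (x axis), 1 library per day, with 95% counting intervals. Psmb8 over Psmb5 goes from 0.00696 to 0.793 on day 10 and Psmb9 over Psmb6 from 0.00229 to 0.173, while Psmb10 over Psmb7 starts at 0.126 and stays between 0.302 and 0.531 later.

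Nlrc5, the transactivator of class I genes, had 8, 17, 59.0, 130 and 79 expected counts. Normalised counts were highest on day 10 and lowest on day 0, whereas the TPM values of days 10 and 14, 16.7 and 16.8, were nearly equal. Its log2 change was 1.83 (0.67 to 3.38) on day 2. By day 10 it was 3.40 (2.53 to 4.79) and by day 14 it was 3.01 (2.11 to 4.42). From day 10 to day 14 its change was −0.39 (−0.82 to 0.02), an interval that includes 0, while those of H2-K1 and H2-D1 lay above 0. Nlrc5 shares no 50-base window with another gene.

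The class II chaperone was under the limit of detection, and the class II chains had few counts. Cd74 had 0, 1, 1, 0 and 2 expected counts, below the floor of 3 counts in every library, which corresponds to between 0.771 and 1.33 CPM (counts scaled to library size). No fold is given, and a difference between days was not detectable at this depth. Ciita had 0 counts in 4 libraries and 1 on day 10, and H2-Aa had 1 count on days 0 and 14 and 0 otherwise. H2-Ab1 had 12, 12, 10, 7 and 4 expected counts, and H2-Eb1 had 10, 4, 1, 4 and 2. The peptide exchange chain H2-DMa had 49, 25, 35, 39 and 59. Of 17 listed class II genes 15 were in the files and 8 were kept. Of these 2, 3, 2 and 2 were 2-fold higher and 0, 2, 3 and 3 lower on days 2, 5, 10 and 14. Of all kept genes 15.2%, 20.2%, 28.7% and 24.5% were higher, and 13.1%, 13.6%, 22.3% and 19.9% lower. The listed genes 2-fold higher on days 10 and 14 were the lysosomal proteases Ctss (2.20, 1.55 to 3.05, on day 14) and Lgmn (1.59, 1.45 to 1.74), which also act outside class II presentation.

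Per length, the order of the members changed little. In TPM B2m was first on every day, with 840.0, 432, 2975, 3566 and 3681, followed by H2-D1 with 170.5, 116, 1028, 1572 and 2149 and by H2-K1 with 103, 251, 832, 1138 and 1406. Only on day 2 was H2-K1 above H2-D1. Tapbp came next on every day, with 21.6 TPM on day 0 and 164 on day 14. Psmb8 moved from below Tap1 and Tap2 on day 0 to above both on days 5, 10 and 14. On day 0 the neighbours Tap1 and Tap2, Psmb8 and Nlrc5, Nlrc5 and Psmb9, and Psmb9 and Cd74 did not differ beyond counting error. On day 14 this held only for Tapbp and Psmb8.

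Genes of the interferon-gamma pathway, the classical inducer of the class I genes, were mostly 2-fold higher from day 5 on, but not on day 2. Of 20 listed 18 were kept. On days 2, 5, 10 and 14, 4, 13, 13 and 15 of these were 2-fold higher, beside 15.2%, 20.2%, 28.7% and 24.5% of all kept genes. On day 2, 1 was lower, and on the later days 0. With TPM values 0 were higher on day 2 and 17, 17 and 16 on the later days. Of the 13 with 10 or more counts on day 0, 1, 8, 9 and 10 were higher. Ifng itself was at 0 in every library. Irf1, a factor that binds the ISRE, was at 2.23, 2.30 and 2.34 (1.87 to 2.91) on days 5, 10 and 14. The GTPase genes Iigp1 and Gbp3 were at 5.10 and 4.47 on day 10. The receptor chain Ifngr1 stayed within 2-fold, with −0.10 (−0.42 to 0.22) on day 14. The summed TPM of the list was 161, 142, 613, 1186 and 824. The part of this pathway in the levels of the class I genes was not tested.

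Markers of macrophages, which carry class I and, when activated, class II molecules, were also higher. All 20 listed were kept, and 20, 19, 17 and 16 of them were 2-fold higher on days 2, 5, 10 and 14, with 0, 1, 1 and 1 lower (Itgam). Of all kept genes 15.2%, 20.2%, 28.7% and 24.5% were higher. With TPM values 16 of the markers were higher on day 2. As 11 of them had under 10 counts on day 0, these counts depend on the filter, and of the other 9, 9, 8, 7 and 6 were higher. Their summed TPM was 83.4, 712, 2106, 1599 and 1015, and Ptprc and Cd5l were at 0 on day 0. The sum was highest on day 5 and lower on day 14, whereas the summed TPM of H2-K1, H2-D1 and B2m was 1114, 799, 4835, 6276 and 7236 and highest on day 14. On day 2 the macrophage sum was already above that of day 0, when the TPM sum of the 3 class I chains was below it. That lower sum came from B2m and H2-D1, and in normalised counts the 3 chains summed to 3385 on day 0 and 3364 on day 2. The immunoproteasome pair Psmb8 and Psmb9 summed to 4.49, 32.0, 141, 201 and 185 TPM, and Tap1, Tap2 and Tapbp to 52, 95.4, 244, 391 and 312. The part of macrophages in the levels of the class I genes was not tested.

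**Figure D4:**
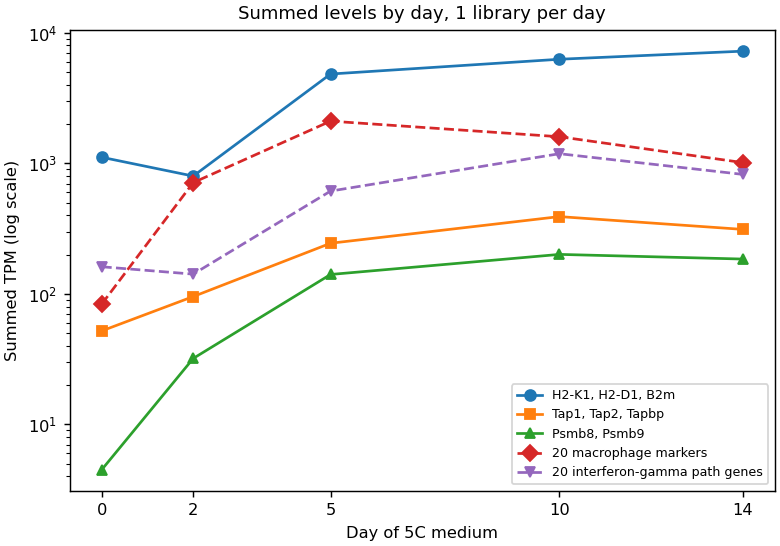
Summed TPM (y axis, log scale) of groups of members and of the interferon-gamma and macrophage marker lists by day of 5C medium (x axis), 1 library per day. The class I chains are highest on day 14 with 7236, the macrophage markers on day 5 with 2106 and the interferon-gamma list on day 10 with 1186.

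Markers of dendritic, B, T and NK cells had few counts or none. Of 9 dendritic cell markers 2 (Zbtb46 and Itgax) were kept, with summed TPM between 2.64 and 9.43, and Cd209a was at 0 in every library. Of 5 B cell markers 0 were kept, with sums between 0.55 and 2.95, and Pax5 was at 0 throughout. Of 8 T and NK cell markers only Cd4 was kept, with at most 10 counts, and Cd3e, Cd3g, Ncr1 and Klrb1c were at 0 in every library. The 6 endothelial markers summed to 22.9 TPM on day 0 and to 2.64 on day 14. The neuron and Schwann cell list summed to 30.3, 23.4, 196, 1666 and 1747 TPM, and the 12 fibroblast markers to between 15023 and 28878 TPM. The part of these cells in the members' levels was not tested.

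**Figure D5:**
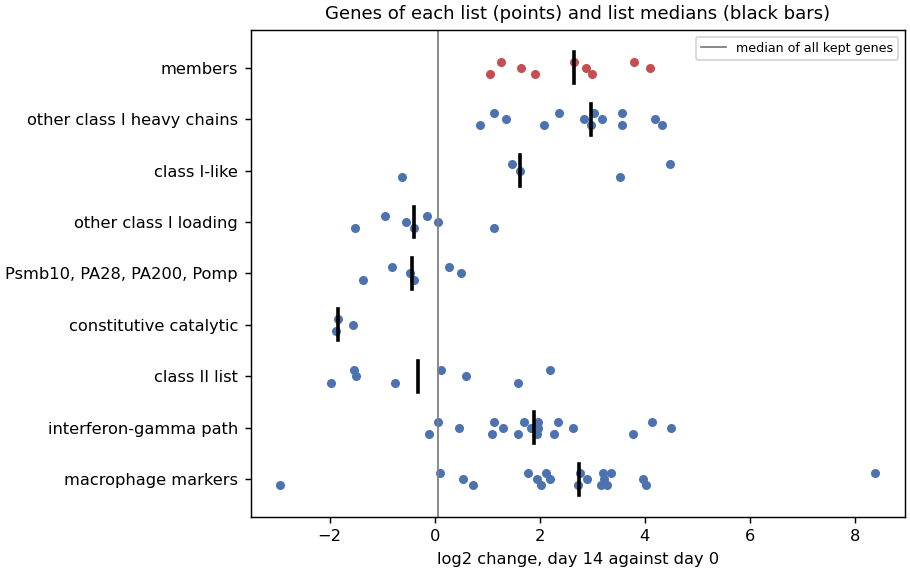
Log2 change of normalised counts on day 14 against day 0 (x axis) for each kept gene (point) of the members' groups and of the other lists (y axis), with a mark at each list's median and a grey line at the median of all kept genes, 0.07. The class I heavy chains lie mostly above 2 and the constitutive proteasome subunits below −1.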

How the data were processed

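MEFs and their cultures in 5C medium were sequenced with 1 library per day, and each library was assigned to its day by its label. Trizol RNA was made into libraries with the TruSeq RNA kit. The submitters' processing notes name Bowtie, RSEM and mm10, without versions. Annotation and filters are not given in the sources used here. The authors deposited expected counts (RSEM's estimates of reads per gene, not scaled), TPM values (divided by gene length and scaled per library) and FPKM values (divided by length and by reads). The effective length the authors deposited equals the gene length in every row. Expected counts gave the main results, and TPM values the levels and ratios. FPKM values only repeated the ratios, since within a library they give the same ratios as TPM values up to rounding.

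Symbols and coordinates came from GENCODE M21 for 27247 of 27729 genes. Expected counts were rounded to compute TMM factors (0.856, 0.808, 1.11, 1.19 and 1.10; edgeR 4.0.16, R 4.3.3) and scaled to the geometric mean effective library size. Changes are log2 ratios with a pseudocount of 1, and their exact Clopper-Pearson intervals have none. A gene was kept if its expected count reached 10 in at least 1 library, and counted as changed past 2-fold, the threshold of the study. Promoters came from RefSeq. The computation was tested on simulated data. Other computations used Python 3.11.15 with pandas 2.3.3, scipy 1.17.1 and numpy 2.4.6, and figures matplotlib 3.10.9.

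The members and lists were chosen with earlier results of these data known. Genes named are all members, list genes whose expected count reached 20 in at least 1 library (those with larger changes first), and the 5 genes closest to the members' pattern. Genes named below that number of counts (Cd4, Ciita, H2-Aa, H2-Ab1, H2-Eb1 and marker genes at 0) were named after their values were seen, to show that they were near absent. Alternatives were DESeq2 1.42.0 size factors, library totals, quantile normalization, TPM values, a pseudocount of 5, centring within 10 bins of gene length, other filters and a 4-fold threshold.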

Additional observations from a re-analysis of the deposited data

How the results depend on the processing

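No change against day 0, and no median or ratio against day 0, of the members reversed its direction under any alternative run. Changes from one later day to another were not run under the alternatives. In TPM some of these had the other sign. Tap2 had 89.2 TPM on day 10 and 86.5 on day 14, and B2m had 2975 on day 5 and 3566 on day 10. Of 60 medians of the other lists 16 had the other sign under 1 or more settings. Among these were the other loading genes (−0.77 and −0.38 on days 10 and 14, with TPM 0.41 and 0.57) and the list of Psmb10 and the activators (−0.54 and −0.43, with TPM 0.58 and 0.40). Of the values for the member counts, medians and ratios, 139 stayed within the limits set for them and 15 did not. Some of those that stayed could not move. Ratios of FPKM values equal ratios of TPM values within a library up to rounding. Leaving out Cd74 changed no median because the filter had already removed it. With a 4-fold in place of a 2-fold threshold, 2, 4, 4 and 5 members were higher on days 2, 5, 10 and 14. The share of all kept genes past 4-fold was not computed, so these counts cannot be set beside the 2-fold shares. With library totals in place of TMM factors the median change of the members was 2.18, 2.44 and 3.01 on days 5, 10 and 14, and with TPM values it was 2.52, 3.20 and 2.87. Quantile normalization gave 2.66 on day 10, centring within 10 bins of gene length gave 2.41 on day 10, and leaving out H2-K1 and H2-D1 gave 1.91 on day 14. Of the values of single members and levels, 231 stayed and 58 moved beyond their counting interval. TMM factors without the day 2 library, added after the data had been seen, gave medians of 1.81, 1.97 and 2.65 and 9, 8 and 9 members higher on days 5, 10 and 14. With the 7 members that had 10 or more counts on day 0, also added then, 3 were higher on day 2 and the median was 1.91 on day 14. No paired analysis was possible because each day has 1 library. For the same reason no replicate could be left out, and neither differences between cultures nor between library preparations can be seen. Psmb9 and Nlrc5 on day 0 rest on 4.31 and 8 counts, and Cd74 on at most 2.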

Other observations

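The 5 class I-like genes, which encode relatives of the class I heavy chain with other ligands, were kept of 6. On each of days 2, 5, 10 and 14, 4 of them were 2-fold higher, though not always the same 4. Of all kept genes 15.2%, 20.2%, 28.7% and 24.5% were. Hfe, which takes part in iron uptake, had a log2 change of 4.48 (3.70 to 5.79) on day 14, and Cd1d1, which presents lipids, had 3.54 (2.15 to 7.20) from 2.0 normalised counts on day 0. Fcgrt, the neonatal Fc receptor, was at 1.94 on day 2 and 1.63 (1.33 to 1.96) on day 14. Procr was at 1.73 on day 2 and −0.62 (−1.34 to 0.05) on day 14. Hfe and Cd1d1 had fewer than 10 counts on day 0 and were kept because of later libraries.

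The RFX, CREB and NF-Y factors bind the SXY module beside Nlrc5. Of their 7 listed genes, 1, 1, 3 and 2 were 2-fold higher on days 2, 5, 10 and 14, and 0, 1, 1 and 0 lower. Of all kept genes 15.2%, 20.2%, 28.7% and 24.5% were higher on these days, and 13.1%, 13.6%, 22.3% and 19.9% lower. Rfx5 was at 2.24 on day 10 and 1.35 (0.66 to 2.18) on day 14, and Nfya at 1.20 (0.77 to 1.67) on day 14, whereas Rfxap was at −1.49 on day 10. Of 7 kept NF-kappa-B pathway genes 0, 1, 2 and 1 were 2-fold higher and 0 lower, beside the same shares of all kept genes. Tnfrsf1a, a receptor of tumour necrosis factor, was at 1.21 (1.03 to 1.39) on day 14.

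Among 8163 genes outside the lists with 100 or more expected counts, the changes against day 0 of C1qtnf6, Slc22a17, Samd14, Sirpa and Ccpg1 were closest to the members' medians, with root mean square differences of 0.14, 0.16, 0.20, 0.22 and 0.23 on the log2 scale over 4 days. The genes closest to Cd74 are not described, because its pattern rests on at most 2 counts.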
